A study of Canis lupus familiaris with 34 samples.

Results

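CDK4, CCNE1, RB1, MDM2, ATRX and CDC5L are 6 genes of growth control that are altered in osteosarcoma, a malignant tumour of bone-forming cells. They were chosen by name, and each is 1 row of the 23988 in the deposited expression table. The table covers 34 RNA sequencing libraries of the dog. All samples carry the breed label Golden Retriever, although the series text also mentions Rottweilers. The libraries comprise 30 of primary bone tumours, 1 of a metastasis (DOS.6M), 2 of cell lines from osteosarcoma (OSCA.78 and OSCA.8, which the series text derives from earlier primary tumours) and 1 of a culture labelled as osteoblasts (CNOB). The labels name no treatment, genotype or time point, and do not say whether samples with the same number in the title came from the same dog.

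Of the 6 genes, CDK4, CCNE1, RB1 and MDM2 meet at the step where a cell commits to copying its DNA. CDK4 with a D-type cyclin, and then CDK2 with cyclin E (encoded by CCNE1), phosphorylate the retinoblastoma protein RB1. That releases the E2F transcription factors, which switch on genes of DNA replication. MDM2 is a ubiquitin ligase that marks the tumour suppressor p53 for destruction, and p53 can halt the same step by inducing CDKN1A. ATRX is a chromatin remodeller that deposits histone H3.3 with its partner DAXX, and its loss is tied to telomere maintenance without telomerase. CDC5L is a core protein of the PRP19 splicing complex. Extra copies of CDK4, CCNE1, MDM2 and of the chromosome arm with CDC5L, and losses of RB1 and ATRX, are known from osteosarcoma. DNA was not measured here.

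All levels are given as FPKM, the number of fragments per kilobase of a transcript relative to all fragments of the library, which makes them levels per length. A pair of libraries carries the number 46 in the title (DOS.46 and DOS.46.2). They were averaged and counted once, so that 29 primary tumours remain. Summed FPKM ranged from 479050 to 1418300, the highest in the osteoblast culture, and the 10 most abundant genes took 7.14% to 39.1% of a library. DOS.76 was the primary tumour least like the median tumour. Summed FPKM of 9 bone matrix genes was between 6872 and 42868 in the primary tumours, 16094 in the osteoblast culture, 4379 in the metastasis and 6183 and 3509 in the lines OSCA.8 and OSCA.78. The bone sialoprotein gene IBSP, a defining marker of bone-forming cells, stood at 1.96 and 0.717 FPKM in these lines. In bulk samples such as these, fewer cells of a type and less RNA per cell cannot be told apart.

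In the primary tumours CDK4 was the most abundant of the 6 and CCNE1 the least. CDK4 ranged from 46.2 FPKM in DOS.76 to 204 in DOS.57, with a median of 91.0 and a mean of 97.45 ± 31.8 (SD, n = 29). MDM2 had a median of 45.3, a lowest value of 29.8 in DOS.37 and a highest of 487 in DOS.28. CDC5L ranged from 13.03 in DOS.81 to 69.4 in DOS.6, with a median of 24.7 and a mean of 28.1 ± 13.2 (SD, n = 29). The upper end of CDC5L was shared by several tumours, since DOS.112 had 52.9 and DOS.116 had 50.2. ATRX ranged from 6.23 in DOS.116 to 18.8 in DOS.76 around a median of 9.87 (mean 10.2 ± 2.69, SD, n = 29). RB1 ranged from 3.48 in DOS.56 to 24.8 in DOS.111 around a median of 9.53 (mean 10.3 ± 4.99, SD, n = 29). RB1 thus spread 7.14-fold from lowest to highest and ATRX 3.02-fold, around nearly the same middle. CCNE1 ranged from 2.16 in DOS.46 to 34.4 in DOS.24, with a median of 5.39 (mean 7.50 ± 6.03, SD, n = 29).

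The order of the medians held within single tumours to different degrees. CDK4 was above MDM2 in 27 of 29 tumours, MDM2 above CDC5L in 23, and CDC5L above ATRX in 29. ATRX and RB1 did not separate, since ATRX was the higher in 15 of 29 tumours. RB1 was above CCNE1 in 21. By SD, ATRX varied least between tumours, at 0.32 on the log2(FPKM + 1) scale. Of the 15165 genes tested, 94.2% had a larger SD than ATRX, and the median SD over all genes was 0.54. The SD of MDM2, 0.70, includes DOS.28. By scaled median absolute deviation on the same scale, ATRX (0.324) and MDM2 (0.336) were close.

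**Figure D1:**
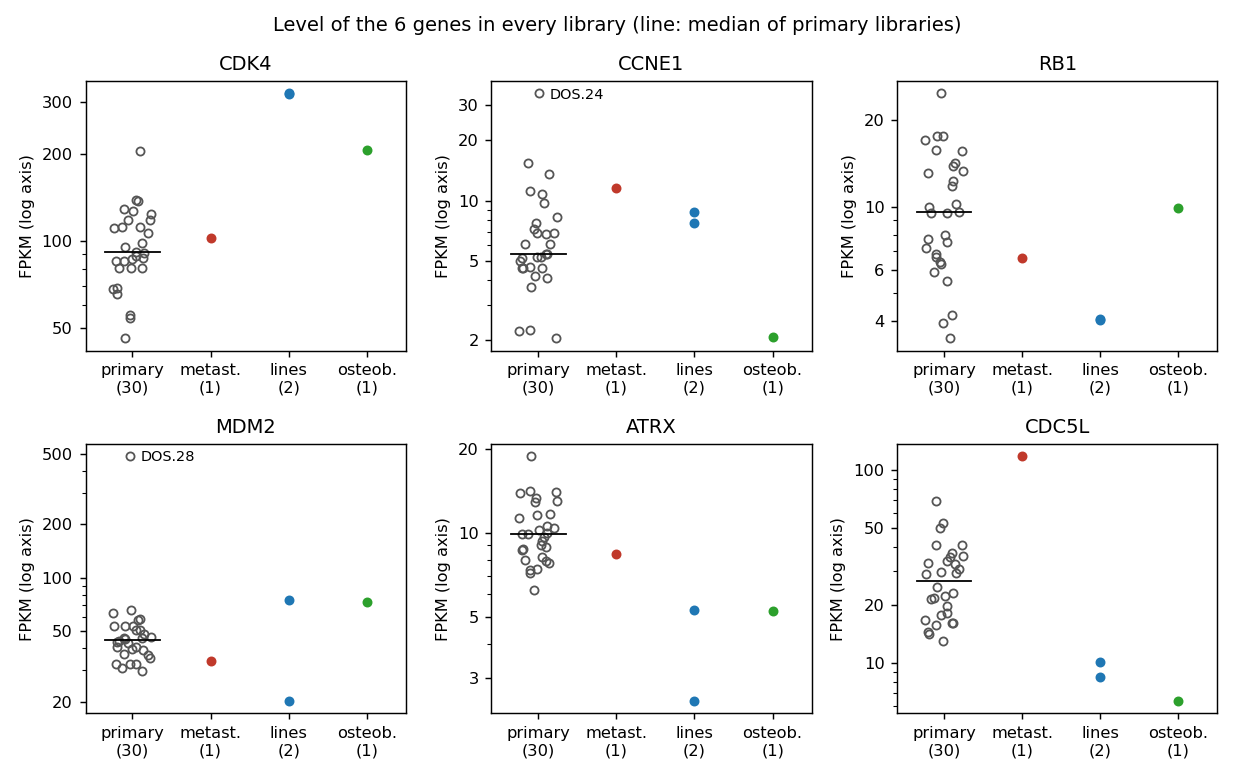
Level of the 6 genes in FPKM (log axis) in every library, with 1 panel per gene and 1 point per library. Open points are the 30 primary tumour libraries with their median as a line. Filled points are the metastasis, the 2 lines and the osteoblast culture. MDM2 in DOS.28 (487) and CCNE1 in DOS.24 (34.4) lie apart from the other primary tumours, and CDC5L is highest in the metastasis (118).

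Single tumours far from the rest were found for MDM2 and for CCNE1. A tumour was called far out when its log2(FPKM + 1) lay more than 3.5 scaled median absolute deviations (MADs) from the median of the 29. MDM2 in DOS.28, at 487 FPKM, lay 10.1 scaled MADs above the median, 10.8 times the median FPKM and 7.43 times the next tumour, DOS.81 at 65.5. The remaining 28 tumours lay between 29.8 and 65.5. CCNE1 in DOS.24, at 34.4 FPKM, lay 5.53 scaled MADs above, at 6.38 times the median and 2.22 times the next tumour, DOS.101 at 15.5. A far-out tumour on the high side is common in this table: 20% of genes had at least 1, and 5.64% had at least 1 on the low side. So 2 of 6 genes on the high side and none on the low side is a description of these genes and sets them apart from no others. The nearest tumours inside the limit were DOS.101 for CCNE1 (3.06), ATRX in DOS.76 (2.67) and CDK4 in DOS.57 (2.67). None of the 29 tumours was far out for CDK4, RB1, ATRX or CDC5L, and MDM2 in DOS.28 and CCNE1 in DOS.24 were the far-out pair under each of the 4 other scalings, pseudocounts and library treatments tried.

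The far-out tumours were read against the genes that lie next to MDM2 and CCNE1. Gene order came from the RefSeq table of the assembly UU_Cfam_GSD_1.0, another build than the canFam3 of the deposited values, so only order is used. Up to 5 tested protein coding genes on each side were taken. Of the 10 neighbours of MDM2, CPM and YEATS4 had their highest level of all 29 tumours in DOS.28. CPM, a membrane carboxypeptidase and the first gene on 1 side, had 66.5 FPKM in DOS.28 against a median of 7.53. YEATS4, a chromatin reader 4 genes away, had 25.04 against a median of 7.90. The genes between them did not share this: CPSF6, a factor of messenger RNA 3′ end formation, ranked 5 of 29 in DOS.28 at 33.1, and the lysozyme gene LYZ ranked 21 at 23.9. FRS2, next after YEATS4, ranked 27 at 4.19. On the other side NUP107, a nuclear pore gene, had its lowest level in DOS.28 (5.44, median 10.4). CDK4, which lies on the same chromosome as MDM2 in that assembly, was low in DOS.28 at 55.6 FPKM, rank 27 of 29.

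CCNE1 in DOS.24 had company on both sides. Of its 9 tested neighbours, 4 were highest in DOS.24. No share of all genes is set beside this count or beside that of the MDM2 neighbours. PLEKHF1 had 66.8 FPKM there against a median of 21.3, and POP4, a subunit of ribonuclease P, had 215.5 against 69.6. DPY19L3 had 35.7 against 15.9, and VSTM2B had 1.02 in DOS.24 against 0.0191. VSTM2B was near 0 in most tumours and also reached 0.842 in DOS.116 and 0.713 in DOS.84. UQCRFS1, the iron-sulphur subunit of respiratory complex III, ranked 2 of 29 at 266. TSHZ3, which lies between CCNE1 and DPY19L3, ranked 25 at 1.04. Across all 29 tumours none of the 9 passed the limma test for going with CCNE1 (3 of 9 at an unadjusted p under 0.05). The highest levels of these neighbours in DOS.24 are thus those of 1 tumour.

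**Figure D2:**
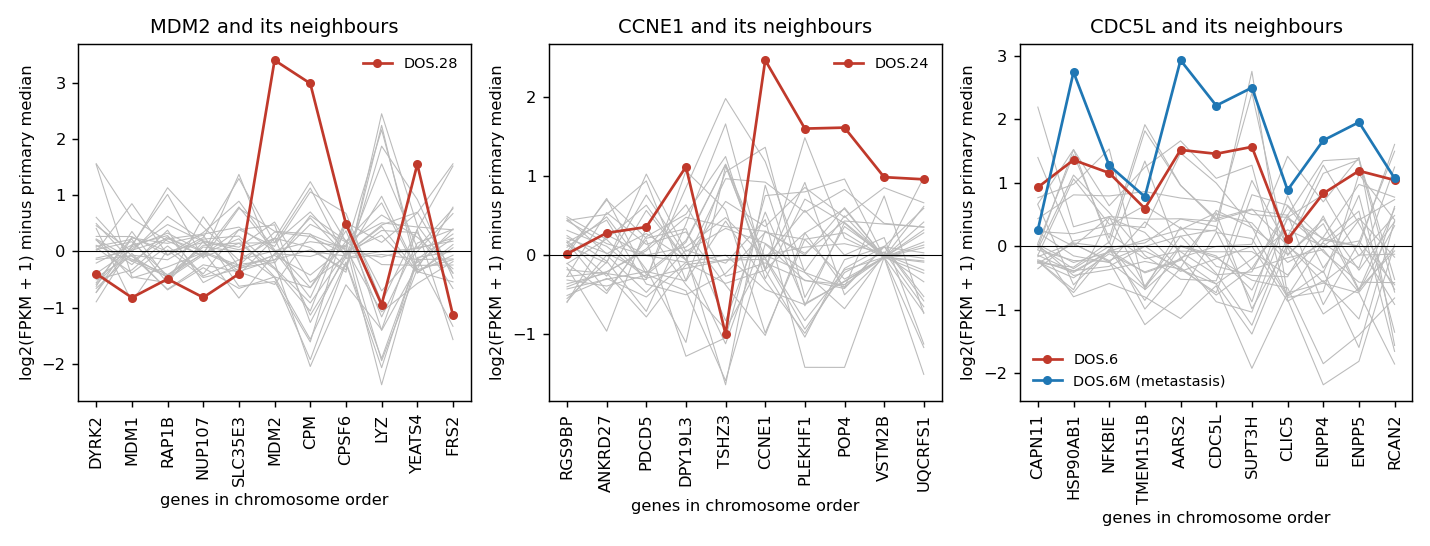
Difference of log2(FPKM + 1) from the median of the 29 primary tumours for MDM2, CCNE1 and CDC5L and their tested neighbours in chromosome order. Grey lines are single primary tumours, red lines are DOS.28, DOS.24 and DOS.6, and the blue line is the metastasis. CPM and YEATS4 are highest in DOS.28, PLEKHF1 and POP4 in DOS.24, and AARS2, HSP90AB1, ENPP4 and ENPP5 are higher in the metastasis than in every primary tumour, the first pair left and the second right of CDC5L.

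The makeup of these tumours stood out in further lists. In DOS.28 all 6 osteoclast genes, all 9 bone matrix genes and all 5 skeletal muscle genes were above their median over tumours (median differences of 1.89, 1.63 and 4.33 on the log2 scale), and 14 of 16 mitosis genes and 25 of 29 E2F targets were below it. All 9 T cell genes were below and all 4 fibroblast genes above their medians in DOS.28. Of all genes, 47.1% were below in DOS.28. The 25 genes of the p53 arm (p53, its regulators and its targets) split evenly there, with 11 below and 11 above. In DOS.24 all 13 macrophage genes and all 10 endothelial genes were above their medians, and 11 of 16 mitosis genes were above. Of all genes, 47.3% were below in DOS.24. The part of these cell types in the MDM2 and CCNE1 levels was not tested.

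The relations among the 6 genes across the 29 tumours centred on RB1. Of 15 pairs, 2 passed a permutation test of Pearson's r of log2(FPKM + 1) with Benjamini-Hochberg adjustment over the 15. CDK4 and RB1 ran in opposite directions, with r = -0.54 (permutation p = 0.0023, adjusted p = 0.0339). The tumour highest in CDK4, DOS.57, ranked 27 of 29 in RB1 at 4.21 FPKM, and the tumour highest in RB1, DOS.111, ranked 28 in CDK4 at 54.2. RB1 and ATRX ran together, with r = 0.50 (permutation p = 0.0047, adjusted p = 0.0353), and DOS.76, highest in ATRX, ranked 3 in RB1 at 17.6. RB1 and CDC5L had r = -0.46 (permutation p = 0.0114, adjusted p = 0.0568), and did not pass.

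Both calls were lost under other choices. With Spearman's rho the values were -0.472 for CDK4 with RB1 and 0.500 for RB1 with ATRX, each at a permutation p adjusted to 0.0827, and none of the 15 pairs passed (4 at an unadjusted p under 0.05). Leaving out the 2 tumours with the most extreme level of the first gene gave r = -0.416 for CDK4 with RB1 (without DOS.57 and DOS.76) and 0.496 for RB1 with ATRX (without DOS.111 and DOS.56), with a permutation p adjusted to 0.116 for each. Both calls were also lost without DOS.76 alone (adjusted p = 0.0797, permutation), without DOS.57 (0.0783), without DOS.111 (0.0907) and without DOS.116 (0.0525 and 0.0589). The call of RB1 with ATRX was lost besides without DOS.6, DOS.32, DOS.46, DOS.81 or DOS.112, while that of RB1 with CDC5L was gained without any 1 of DOS.8, DOS.46, DOS.73, DOS.75, DOS.84 or DOS.101.

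**Figure D3:**
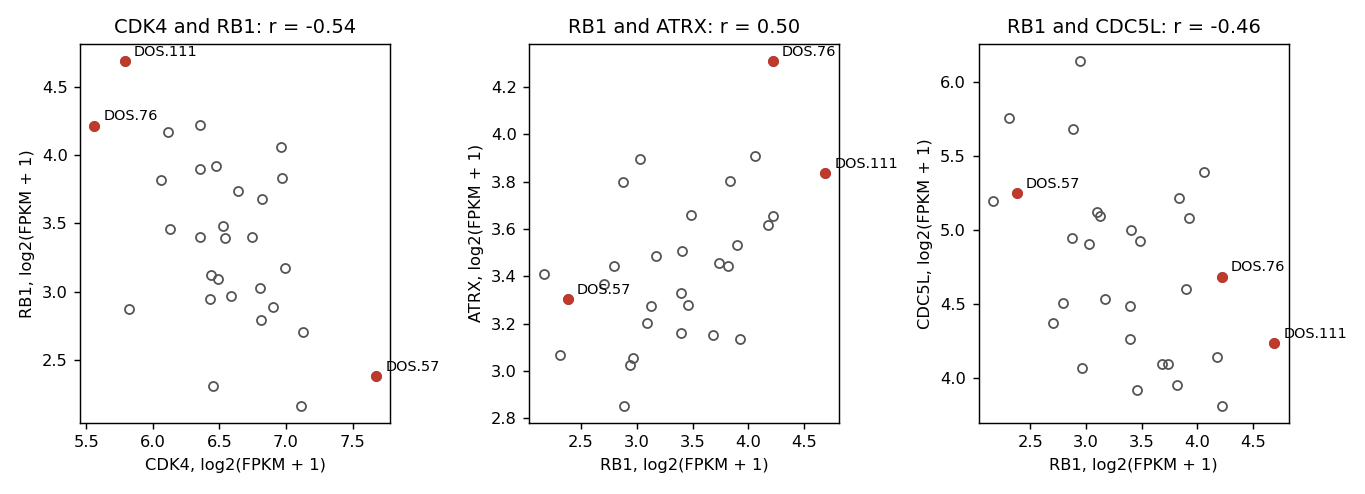
Levels of 3 pairs of genes as log2(FPKM + 1), with 1 point per primary tumour (n = 29). Red points mark DOS.57, DOS.76 and DOS.111, each of whose removal ended the calls for CDK4 with RB1 (r = -0.54) and RB1 with ATRX (r = 0.50).

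Apart from CDK4 with RB1, pairs of genes with a shared place in the pathway did not pass. CDK4 and CCNE1 had r = 0.345 (permutation p adjusted to 0.242) and rho = 0.421 (0.0971). CCNE1 and RB1 had r = -0.314 (0.242, permutation). CDK4 and MDM2 had r = -0.220, which became 0.152 without DOS.28. MDM2 had no relation past the test with any of the other 5 genes. Among 3 properties of the libraries (summed FPKM, the number of genes above 0 and the share of the 10 most abundant genes), 1 of 18 relations passed. CCNE1 fell with the share of the top 10, with rho = -0.550 (permutation p adjusted to 0.0428), but with r = -0.356 (adjusted p = 0.458, permutation). Its r was -0.344 when the 2 tumours with the most extreme share of the top 10 were left out.

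To place each gene among all others, every tested gene was fitted in limma on the log2 level of each of the 6 across the 29 tumours. CDK4 and RB1 had many companions. For CDK4, 584 genes went in the same direction (3.85%) and 722 in the opposite direction (4.76%). For RB1 the numbers were 885 (5.84%) and 764 (5.04%). For ATRX they were 102 (0.673%) and 29 (0.191%), and for CDC5L 27 (0.178%) and 5 (0.0330%). MDM2 had 15 (0.0989%) and 1 (0.00659%), and CCNE1 had 5 (0.0330%) in the same direction and none in the opposite one (790 at an unadjusted p under 0.05). Among these calls were RB1 for CDK4 and CDK4 for RB1, and no other of the 6 genes for any.

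The counts for MDM2 and CCNE1 turned on their far-out tumours. Without DOS.28, no gene went with MDM2 in limma (1068 in the same and 895 in the opposite direction at an unadjusted p under 0.05). The 5 genes most like MDM2 were TMEM211, ACVR1C, UCN2, OPCML and CEACAM20, each nearly silent elsewhere: OPCML had a median of 0.0181 FPKM and 12.01 at its highest, and its r of 0.757 became -0.285 without DOS.28. Without DOS.24, 105 genes went with CCNE1 in the same direction and 31 in the opposite one. Its closest genes were CENPW, a centromere protein (r = 0.771), and AURKA, the mitotic kinase Aurora A (r = 0.759, and 0.813 without DOS.24). The genes most like CCNE1 after these were FGFR1OP, WDYHV1 and RMI1, none of which passed the test. USP4, MAPKAPK3 and C3ORF67 had the lowest r with CCNE1, between -0.678 and -0.637, and none of them passed either.

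CDK4 went with cell division genes. Of 16 tested genes of mitosis, 9 went with CDK4 in the same direction in limma and none in the opposite one (none at an unadjusted p under 0.05), with a median r of 0.510 against -0.03 over all genes. CDK1, the kinase that drives entry into mitosis, had r = 0.656 (limma adjusted p = 0.0069), and the spindle motor KIF11 had r = 0.581 (limma adjusted p = 0.0174). Of 29 E2F targets, the replication genes that RB1 restrains, 4 went with CDK4, led by the clamp loader subunit RFC4 (r = 0.593, limma adjusted p = 0.0151) and the replication licensing gene CDC6 (r = 0.539, limma adjusted p = 0.0316). Without DOS.76, 1 of 16 mitosis genes and 1 of 29 E2F targets passed, with median r of 0.403 and 0.238. Without DOS.57, the tumour farthest from the CDK4 median, 11 and 6 passed, with median r of 0.616 and 0.414. In DOS.76, which had the lowest CDK4, all 16 mitosis genes were below their medians.

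Among the other regulators of the step from G1 to S phase, RBL2, the p130 relative of RB1, went with both genes and in opposite directions: its r was -0.67 with CDK4 (limma adjusted p = 0.0070) and 0.496 with RB1 (limma adjusted p = 0.0490). CCNA2, cyclin A2, had r = 0.542 with CDK4 (limma adjusted p = 0.0291). The genes most like CDK4 were LRPPRC (r = 0.813), TXNL4A, CWF19L1, TNRC6B and the nuclear export receptor XPO1 (r = 0.770), and those least like it were AHDC1 (r = -0.80), TRIM62 and PPP1R9B. Of the 10 tested neighbours of CDK4, TSFM, a mitochondrial translation factor, went with it (r = 0.741, limma adjusted p = 0.0074) and CTDSP2, a phosphatase, went against it (r = -0.58, limma adjusted p = 0.0183). TSFM was highest in DOS.57, the tumour highest in CDK4, at 12.6 FPKM, and CTDSP2 was lowest there at 14.2. Without DOS.57, TSFM had r = 0.650 and no longer passed (limma adjusted p = 0.0516), and CTDSP2 had r = -0.484 (limma adjusted p = 0.0897).

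CCNE1 had the higher median r with the same mitosis genes, 0.556 against -0.02 over all genes, yet 1 of 16 passed, namely AURKA (limma adjusted p = 0.0053), and 15 of 16 had an unadjusted p under 0.05. Without DOS.24, 11 of 16 passed and the median r was 0.653. Of the 29 E2F targets none passed with CCNE1 in limma (17 at an unadjusted p under 0.05), with ORC1, a subunit of the origin recognition complex, closest at r = 0.602. Whether CDK4 and CCNE1 differ in how they go with these lists was not tested.

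None of the 29 E2F targets passed with RB1 in limma, in either direction. At an unadjusted p under 0.05 in limma, 0 went in the same and 3 in the opposite direction. Of the 29, 23 had r below 0, and the median r was -0.09 against 0.02 over all genes. In DOS.111, the tumour highest in RB1, 25 of the 29 were above their medians, while 46.1% of all genes were below theirs. The r of these targets without DOS.111 is not given here. The genes closest to RB1 were MEF2A, a transcription factor (r = 0.849), the protease FURIN (r = 0.818), MTMR10, the receptor phosphatase PTPRJ and RGL1, none of them on the chromosome of RB1. SERHL2, B9D1 and SWI5 had the lowest r with RB1, from -0.79 to -0.77. MDM4, the p53-binding relative of MDM2, went with RB1 (r = 0.565, limma adjusted p = 0.0335), and RPS27L went against it (r = -0.64, limma adjusted p = 0.0065). Of 10 endothelial genes, 3 went with RB1, among them the vessel cadherin CDH5 (r = 0.584, limma adjusted p = 0.0110) and ROBO4 (r = 0.508, limma adjusted p = 0.0353), and all 10 had r above 0. The summed endothelial level ran from 110 to 2645 FPKM over the tumours, and its part in the RB1 level was not tested. Without DOS.111, 1 of 10 passed, at a median r of 0.387 where it had been 0.417.

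Of the 10 neighbours of RB1, ITM2B, 2 genes away, went with it (r = 0.736, limma adjusted p = 0.0012, and 0.0027 without DOS.111). ITM2B ranged from 257.6 to 1394 FPKM. In the wider set, 20 of the 735 genes that went with RB1 and have an entry in the RefSeq table lie on its chromosome, 2.72% against 1.14% of all tested genes with an entry. For CDK4 the numbers were 35 of 394, 8.88% against 3.69%, and for ATRX 1 of 83, 1.20% against 3.31%. Among genes that went against them, 12 of 604 lay on the chromosome of CDK4 (1.99%) and 1 of 447 on that of RB1 (0.224%). For ATRX it was 2 of 24, which at 8.33% was above the 3.31% of tested genes.

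**Figure D4:**
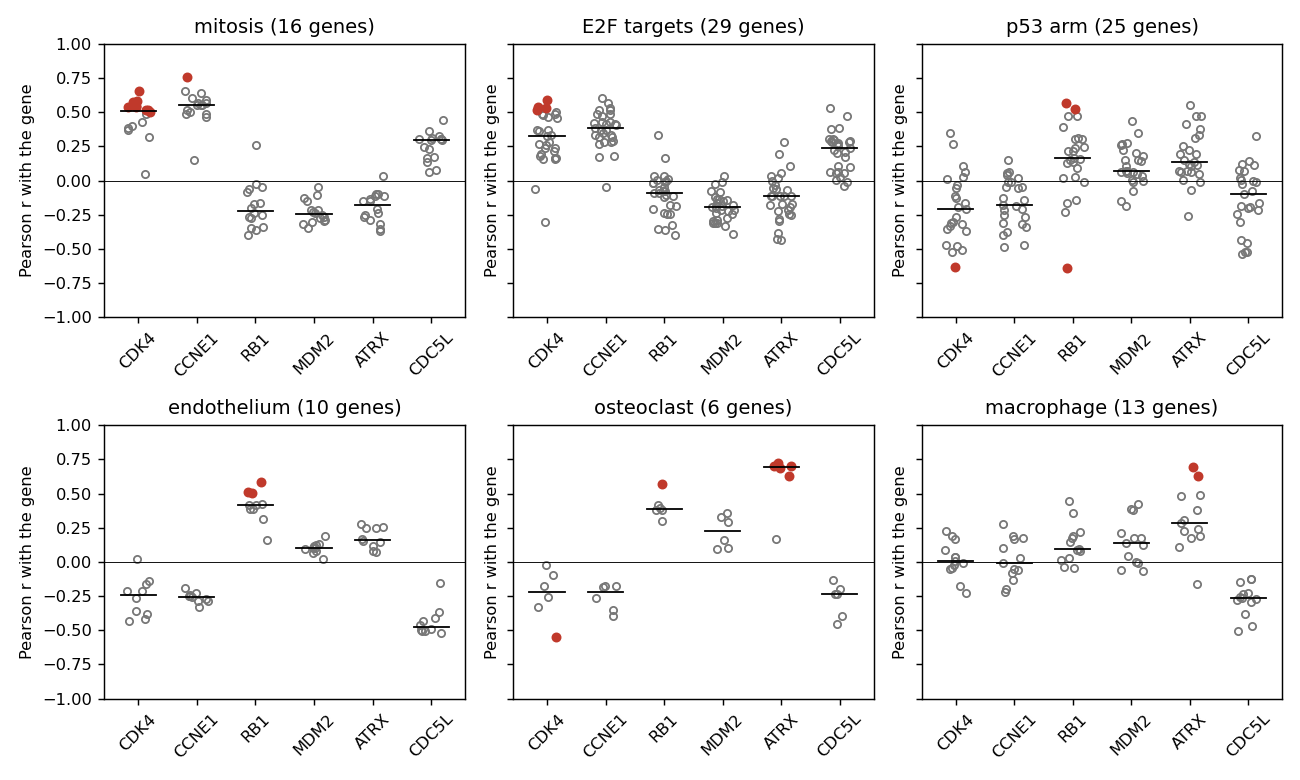
Pearson r across the 29 primary tumours between each of the 6 genes and the genes of 6 lists, with 1 point per gene of the list and the median as a line. Red points passed limma at an adjusted p under 0.05. Mitosis genes lie highest for CDK4 and CCNE1 (medians 0.510 and 0.556), and osteoclast genes for ATRX (median 0.695).

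MDM2 did not go with its own pathway. None of the 25 genes of the p53 arm passed with MDM2 in limma (1 at an unadjusted p under 0.05), and the highest r was that of TP53I3, a p53 target, at 0.435 (limma adjusted p = 0.971). AEN, a p53-induced nuclease, had r = 0.347. LY6E, PAK3 and ATP9A had the lowest r with MDM2, from -0.57 to -0.53, and none passed.

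ATRX went with osteoclast genes. Of 6 tested genes of osteoclasts, the cells that resorb bone, 5 went with ATRX in limma, with a median r of 0.695 against -0.0044 over all genes. The proton pump subunit ATP6V0D2 had r = 0.723 (limma adjusted p = 0.0045) and the receptor SIGLEC15 r = 0.704 (limma adjusted p = 0.0063). ATP6V0D2 ranged from 0.0322 to 55.5 FPKM. Of 13 macrophage genes, 2 passed: the lysosomal protein CD68 (r = 0.693, limma adjusted p = 0.0077) and the receptor CSF1R (r = 0.626, limma adjusted p = 0.0295). Both are also expressed by osteoclasts. Without DOS.76, 4 of 6 osteoclast genes and 1 of 13 macrophage genes passed. The summed level of the osteoclast genes ran from 9.80 to 171 FPKM over the tumours, and the part of these cells in the ATRX level was not tested.

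The closest genes to ATRX included RGS4 (r = 0.759), DMXL1, SNX10, a sorting nexin needed by osteoclasts (r = 0.752), the peptidase DPP4 (r = 0.741) and PTPN22. GJB5 (r = -0.78), ECE2 and TMEM121 went against it most. None of the 22 tested ATRX partners and telomere genes went with ATRX in limma (2 at an unadjusted p under 0.05). The histone gene H3F3A had r = 0.393 and ACD, of the telomere-binding shelterin complex, r = -0.38, both at a limma adjusted p above 0.05 (0.319 and 0.325). None of the 10 neighbours of ATRX passed either (3 at an unadjusted p under 0.05 in limma).

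CDC5L went with its stretch of chromosome. Of the 27 genes that went with CDC5L in the same direction, 23 have an entry in the RefSeq table, and all 23 lie on the chromosome of CDC5L, which holds 2.79% of the tested genes with an entry. All 23 lie on the same side of CDC5L, from 2 to 144 protein coding genes away, with r between 0.652 and 0.830. The closest were MRPL2 (r = 0.830), MRPS18A (r = 0.825), PPP2R5D (r = 0.813), CNPY3 (r = 0.812) and POLR1C (r = 0.801), which encode 2 proteins of the mitochondrial ribosome, a phosphatase subunit, a chaperone and a subunit of RNA polymerases I and III. The 5 genes that went against CDC5L have entries on other chromosomes, and RASGRP4, TMEM106A and CAST had the lowest r, from -0.71 to -0.67.

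The same tumours led for most of the 23. DOS.6 was highest for 13 of them and DOS.112 for 5, and these tumours ranked 1 and 2 for CDC5L. MRPL2 had 170 FPKM in DOS.6, 145 in DOS.112 and 133 in DOS.116 against a median of 38.6, and MRPS18A had 187, 213 and 192 against 47.3. Over the 95 tested genes that lie up to 150 genes away on that side, the median r with CDC5L was 0.457 and 79 had r above 0. On the other side the median r of 69 genes was 0.05, and none passed in limma (10 at an unadjusted p under 0.05). None of the 141 genes farther away passed either (24 at an unadjusted p under 0.05 in limma). The window of 150 genes was drawn after these values were seen, and the correlations share the same 29 libraries. Without DOS.6, 25 of the 54 genes with an entry that went with CDC5L lay on its chromosome.

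The metastasis had CDC5L at 118 FPKM, above all 29 primary tumours. That was 4.79 times the median and 1.70 times the level of DOS.6 (69.4), the primary tumour with the same title number. The metastasis library was not in the fit that chose the 23 genes, but DOS.6 was, and whether both came from 1 dog is not stated, so its values are no independent check of that choice. Of all tested genes, 5% were higher in the metastasis than in every primary tumour. Of the 23 genes that went with CDC5L, 21 were: MRPL2 had 232 FPKM in the metastasis, DNPH1 543 and TOMM6 1556, against highest values in primary tumours of 170, 258 and 855. The exceptions were NUDT3, the most distant of the 23, at 125 with 5 tumours above it, and MEA1 at 202 with 1 above it. Over the 95 genes of the stretch the median difference from the primary median was 1.41 on the log2(FPKM + 1) scale and 47 were above every primary tumour. On the other side the median difference was -0.35 and 5 of 69 were above every primary tumour. The genes next to CDC5L were raised on both sides, however: 4 of its 10 direct neighbours were above every primary tumour. On the side of the 23 genes, AARS2 had 59.6 FPKM in the metastasis against a highest primary value of 24.2, and HSP90AB1, an HSP90 chaperone, had 2019 against 867.6. On the other side, ENPP4 had 34.3 against 27.3 and ENPP5 24.5 against 16.3, and SUPT3H, CLIC5 and RCAN2 lay 2.50, 0.89 and 1.07 above their primary medians on the log2(FPKM + 1) scale. With 1 metastasis there is no replicate, and no test was made.

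**Figure D5:**
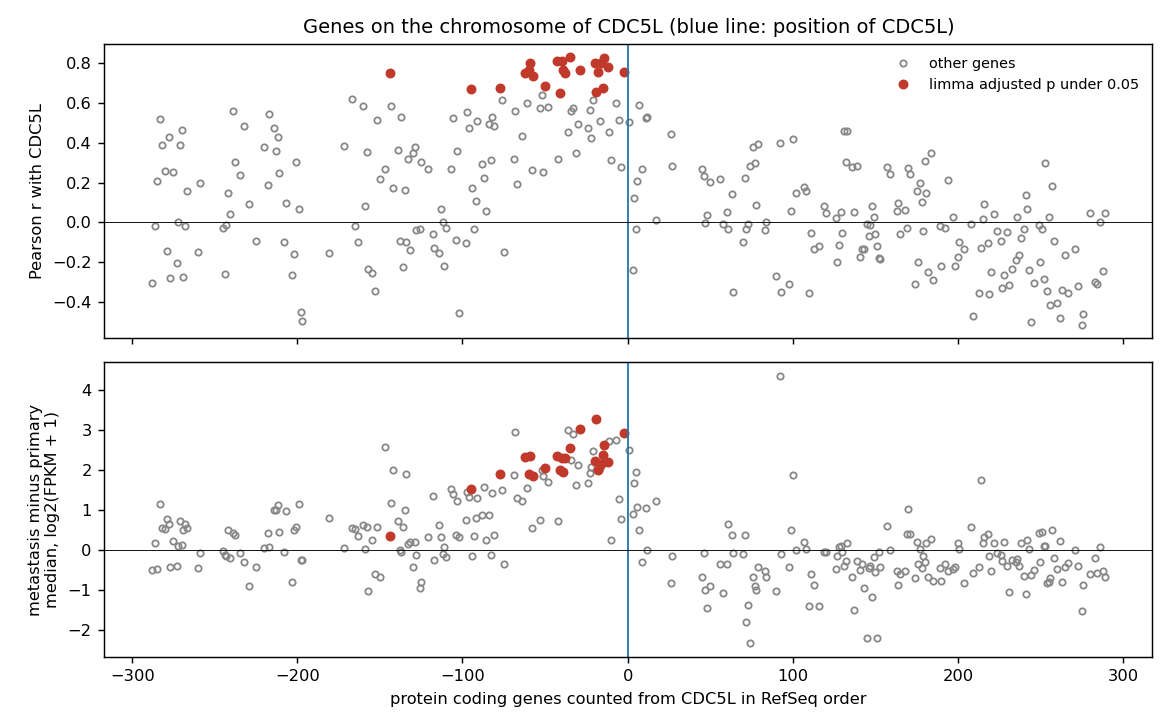
Tested genes of the chromosome of CDC5L in RefSeq order, counted in protein coding genes from CDC5L (blue line). The upper panel gives the Pearson r with CDC5L across the 29 primary tumours, and the lower panel the metastasis minus the primary median as log2(FPKM + 1). The 23 red genes passed limma with CDC5L and all lie left of it, where 21 of them were higher in the metastasis than in every primary tumour.

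The splicing partners of CDC5L did not follow it. None of 20 tested genes of the PRP19 complex and its neighbours in the spliceosome passed with CDC5L in limma (5 at an unadjusted p under 0.05). The closest, the cyclophilins PPIL1 and PPIE, had r = 0.524 and 0.519. PPIL1 also lies on the chromosome of CDC5L, within the stretch on the side where genes went with CDC5L. Like many genes there, PPIL1 was higher in the metastasis than in every primary tumour. Whether the r of PPIL1 goes with its place on the chromosome or with the splicing complex was not tested. Endothelial genes ran the other way, with a median r of -0.48 and all 10 below 0, and none of them passed (9 of 10 at an unadjusted p under 0.05 in limma). CDH5 had r = -0.52 with CDC5L (limma adjusted p = 0.123).

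The other 5 genes lay within the range of the primary tumours in the metastasis. CCNE1 had 11.6 FPKM there and 11.1 in DOS.6, with 3 tumours above the metastasis. RB1 had 6.62 against 6.69 in DOS.6, CDK4 102 against 85.4, MDM2 33.8 against 45.6 and ATRX 8.39 against 7.14. ATRX in the metastasis was above 8 of the 29 primary tumours.

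The lines differed from the primary tumours in 3 of the 6 genes, in limma with an adjusted p under 0.05, where 16.4% of all tested genes differed (8.49% higher and 7.92% lower in the lines). CDK4 stood at 320 FPKM in the line OSCA.8 and at 323 in the line OSCA.78, above every primary tumour. The log2 difference was 1.78 (SE 0.33, limma adjusted p = 3.4e-04). ATRX had 5.29 and 2.49 and CDC5L 10.1 and 8.51, below every primary tumour, with differences of -1.22 (SE 0.27, limma adjusted p = 0.0020) and -1.38 (SE 0.42, limma adjusted p = 0.0241). Both lines lay above every primary tumour for 4.04% of all genes and below for 7.30%. With only OSCA.8, ATRX stood at -0.79 and CDC5L at -1.26 and neither passed (limma adjusted p = 0.327 and 0.352). With only OSCA.78, CDC5L stood at -1.49 and did not pass (0.0930, limma adjusted).

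RB1 had 4.06 and 4.04 FPKM in the lines, below 27 of 29 tumours. The difference of -1.04 had a limma adjusted p of 0.104, and an exact two-sided permutation test over the 465 ways to draw 2 of 31 samples gave p = 0.0280 without adjustment (smallest possible 0.00215). MDM2 split the lines: OSCA.8 had 75.3, above 28 of 29 tumours, and OSCA.78 had 20.1, below all 29, as 18.3% of all genes in that line were. CCNE1 lay inside the range of the tumours, at 7.74 and 8.76. Against the primary tumour with the same title number, CDK4 was higher by 1.20 (OSCA.8 and DOS.8) and 1.59 (OSCA.78 and DOS.78) on the log2(FPKM + 1) scale, ATRX stood at -0.71 and -1.71 and CDC5L at -0.89 and -1.75.

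Macrophage and endothelial genes were low in both lines. The summed level of 13 macrophage genes was 1.74 and 2.61 FPKM in OSCA.8 and OSCA.78 against 86.7 to 1533 in the primary tumours, with 13 and 12 of the 13 under 1 FPKM and TYROBP at 0 in OSCA.78. Endothelial genes summed to 1.05 and 38.0 against 110 to 2645. The 6 osteoclast genes, of which 5 went with ATRX among the tumours, had sums of 5.75 (OSCA.8) and 13.2 (OSCA.78). The tumours ran from 9.80 to 171, so that the sum of OSCA.78 lay inside their range. NFATC1 alone made up 9.67 FPKM of that sum. Of these 6 genes, 1 was at 0 in OSCA.8 and 4 in OSCA.78 (ATP6V0D2, DCSTAMP, OCSTAMP and SIGLEC15), and 3 were at 0 in at least 1 primary tumour. The fibroblast sum of OSCA.8 (884, tumours 173 to 5927) and the cartilage sums of both lines (195 and 173, tumours 32.6 to 1424) were also inside the range, and the fibroblast sum of OSCA.78, at 145, was below it. The part of these cells in the differences for ATRX, CDC5L and RB1 was not tested.

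The pathway lists around the 6 genes are read against the 16.4% of all tested genes that differed (8.49% higher and 7.92% lower in the lines). Their counts ran from 2 of 29 to 4 of 20, in most lists in 1 direction only. The list of other osteosarcoma genes, which is read separately below, had 1 of 20. Whether any list stands apart from all genes was not tested. Of 27 further genes of G1 to S control, 2 were higher and none lower (5 higher and 2 lower at an unadjusted p under 0.05 in limma). CCND2, cyclin D2 and so a partner of CDK4, had 107 and 66.3 FPKM against 11.7 ± 13.9 (SD, n = 29), and CDK2, the partner of cyclin E, had 42.7 and 75.2 against 22.7 ± 9.35 (SD, n = 29). Of 29 E2F targets 2 were higher (MCM5 and FEN1) and of 16 mitosis genes 3 (MKI67, PLK1 and CDC20), with none lower in either list. At an unadjusted p under 0.05 in limma, 13 of the 29 E2F targets and 5 of the 16 mitosis genes were higher and none lower. For MKI67, the proliferation marker, OSCA.8 had 21.2 and OSCA.78 had 86.8 FPKM against 12.4 ± 8.94 (SD, n = 29). The median log2 differences of the E2F and mitosis lists were 0.93 and 0.57, against -0.05 over all genes.

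Of the 25 genes of the p53 arm, 2 were higher and 2 lower. PERP, a p53 target, rose by 2.62 (limma adjusted p = 4.5e-05) and SESN2 by 1.67 (limma adjusted p = 0.0025), and the ubiquitin ligase gene RFWD2, another p53 antagonist, fell by 1.06 (limma adjusted p = 0.0064). Of 22 ATRX partners and telomere genes, ACD and the histone chaperone HIRA were higher and none lower (2 lower at an unadjusted p under 0.05 in limma). Of 20 spliceosome genes around CDC5L, 4 were lower and none higher (5 lower and 2 higher at an unadjusted p under 0.05 in limma). SF3B1 had 23.4 and 17.9 FPKM against 90.7 ± 24.1 (SD, n = 29), a fall by 2.04 on the log2 scale (limma adjusted p = 1.1e-05), and CWC22 and CRNKL1 followed with falls by 1.0 and 0.92. Of the 23 genes that went with CDC5L among the tumours, UBR2 was lower in the lines and the other 22 did not pass.

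In 3 of the 6 genes the osteoblast culture lay on the same side of the primary tumours as the lines. CDK4 had 205 FPKM there, above all 29 primary tumours, and ATRX 5.23 and CDC5L 6.35, below all of them. CCNE1 was also below all of them at 2.07, unlike in the lines. RB1 at 9.92 was in the middle of the tumours, and MDM2 at 72.9 was above 28 of 29. In this culture 22% of all genes were above and 19.5% below every primary tumour, and its summed FPKM was the highest of the 34. The CDK4 difference of 1.17 from the primary median, on the log2 scale, became 0.60 after scaling to the upper quartile and -0.018 after quantile normalisation, so its direction rests on the scaling. That of MDM2 went from 0.67 to -0.12 after quantile normalisation. Those of CCNE1, ATRX and CDC5L kept their sign under both.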

How the data were processed

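Total RNA was sequenced from TruSeq RNA v2 libraries, per the labels. The authors deposited 1 table of 23988 genes by 34 libraries whose header names no unit. The deposited values were taken for FPKM computed by the authors, since Cufflinks 2.2.1, along with FastQC 0.11.2, TopHat2 2.0.13 and the assembly canFam3, stands in the submitters' processing notes. Not given in the sources used here are the parameters, the annotation and what "masked" in the table's name refers to. Fragment counts were not used here, so the depth is unknown and no counting interval was made.

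The filter kept 15165 genes that reached 1 FPKM in 2 or more libraries, and 1 FPKM was added before taking log2, which understates changes of low genes. The deviations of DOS.46 and DOS.46.2 from the primary mean correlated at r = 0.744 across genes. limma 3.58.1 (R 4.3.3; eBayes after lmFit with its trend and robust settings on; two-sided p, Benjamini-Hochberg over all genes tested, threshold 0.05) compared 2 lines with 29 primary tumours, and fitted all genes on each of the 6 genes. Its scripts were tested on simulated data. Correlations used 100000 permutations. The labels do not say that samples came from separate dogs or cultures, so p-values measure the spread between these samples. Names of 13111 of 14335 named rows were found in the RefSeq table. Other steps ran in Python 3.11.15 (pandas 2.3.3, numpy 2.4.6, matplotlib 3.10.9, scipy 1.17.1).

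The 6 genes and all lists were chosen with earlier results of these data known. Named genes are the 6, in each list the 3 with the largest called change in the lines (or the 2 with the smallest adjusted p) and the 2 with the largest absolute r, the 5 highest and 3 lowest r for each of the 6 genes, and up to 5 neighbours on each side; the neighbours of ATRX in the metastasis are not reported here. The genes on the chromosome of CDC5L were named after their values were seen. The alternatives were another pseudocount, no filter, upper quartile scaling, quantile normalisation, separate DOS.46 libraries, other tests and left-out samples. Leaving out DOS.76, or the tumour farthest from a gene's median, and the rescaled metastasis and osteoblast values, were chosen after seeing the data. Sequences are not shown, since none was at hand.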

Additional observations from a re-analysis of the deposited data

How the results depend on the processing

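Of 340 values recomputed under other choices, 273 kept their direction and side of the threshold, and the cause of the changes was not tested. Without OSCA.78 or without OSCA.8, the genes called in the lines numbered 344 and 1998 and those of the 6 genes 1 and 2, and the log2 differences ranged from -1.21 to 0.64 for MDM2, from -1.65 to -0.79 for ATRX and from -1.49 to -1.26 for CDC5L. The lone line is then assumed to vary like the tumours. The title numbers 8 and 78 as a replicate block left 4 samples, in which 0 genes and 0 of the 6 genes were called in limma (3164 and 3 at an unadjusted p under 0.05), with CDK4 at 1.40, CCNE1 at -0.062, MDM2 at 0.014, ATRX at -1.21 and CDC5L at -1.32. The line difference and the difference of the same-numbered tumours correlated at r = 0.269, and the labels do not say what the numbers share. RB1, at -1.04, passed by exact permutation without adjustment (p = 0.0280).

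Genes that went with CDK4 numbered 500 after quantile normalisation, 692 without DOS.76 and 532 without DOS.57. For CCNE1 they numbered 19 with upper quartile scaling, 40 with quantile normalisation, 18 with separate DOS.46 libraries, 2 without a filter, 2 without DOS.76 and 136 without DOS.24. For RB1 they numbered 918 with quantile normalisation. For MDM2 they numbered 3 with a pseudocount of 0.1, 50 without a filter and 0 without DOS.28. For ATRX they numbered 45 with upper quartile scaling, 62 with quantile normalisation, 221 with separate DOS.46 libraries and 38 without DOS.76, its farthest tumour. For CDC5L they numbered 56 with quantile normalisation and 245 without DOS.6, of which 176 went against it.

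Of the 15 pairs, 0 were called with upper quartile scaling, quantile normalisation, Spearman's rho, without DOS.76 or without the 2 farthest tumours, and from 0 to 3 with 1 tumour left out (0 in 4 of the 29 cases, 2 in 16). CDK4 with MDM2 had rho = 0.041 and an r from -0.29 to 0.15 with 1 tumour left out, and MDM2 with CDC5L from -0.175 to 0.0226. The osteoblast CDK4 difference was -0.018 after quantile normalisation.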

Other observations

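Of 20 other osteosarcoma genes, 4 went with RB1 and 1 against it in limma, and 1 went with CDK4 and 3 against it, where 5.84% and 5.04% of all genes did so for RB1 and 3.85% and 4.76% for CDK4. COPS3, a subunit of the COP9 signalosome, ran with CDK4 (r = 0.724, limma adjusted p = 0.0033) and against RB1 (r = -0.63, limma adjusted p = 0.0070), from 7.38 to 40.5 FPKM over the 29 primary tumours. SPRED1, an inhibitor of RAS signalling, ran with RB1 (r = 0.609, limma adjusted p = 0.0097), and FGFR1, a growth factor receptor, ran against CDK4 (r = -0.60, limma adjusted p = 0.0141). None of the 20 went with or against CCNE1, MDM2, ATRX or CDC5L in limma (at an unadjusted p under 0.05, 4 with and 3 against CCNE1, 1 and 0 for MDM2, 3 and 2 for ATRX, and 1 and 1 for CDC5L). In the lines, DMD, the dystrophin gene, was higher among these 20, at 7.55 and 1.97 FPKM against 1.29 ± 1.30 (SD, n = 29; limma adjusted p = 0.0445).

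Counts in the bone, fibroblast, cartilage and osteoclast lists are read against the same shares of all genes. Of 9 bone matrix genes, SPP1 (osteopontin) went with ATRX (r = 0.590, limma adjusted p = 0.0463; 0.673% of all genes did) and PHEX, an osteocyte gene, with RB1 (r = 0.541, limma adjusted p = 0.0233). Of 4 fibroblast genes, POSTN and LUM went against RB1 (r = -0.52 and -0.51, limma adjusted p = 0.0317 and 0.0356), as did ACAN, 1 of 6 cartilage genes (r = -0.53, limma adjusted p = 0.0285). Another of these 6, HAPLN1, went with CDK4 (r = 0.535, limma adjusted p = 0.0329). Of 6 osteoclast genes, the receptor TNFRSF11A went with RB1 (r = 0.573, limma adjusted p = 0.0176) and the transcription factor NFATC1 against CDK4 (r = -0.55, limma adjusted p = 0.0273). The part of these cell types in the levels of CDK4, RB1 and ATRX was not tested.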
